A study of Mus musculus with 24 samples.

Results

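The 10 genes described here encode proteins of skeletal muscle, most but not all of them particular to fast-twitch fibres: Acta1, Ckm, Myh4, Mylpf, Tnnt3, Tnnc2, Tnni2, Myl1, Atp2a1 and Pvalb. They were measured in whole mammary gland of female mice, and were found by gene name among the array's probes, which gave 13 of 55681 probes. The study asked how RNA levels of the mammary gland change after low-dose ionizing radiation (LDIR) and how they differ between mouse strains, and it used 24 samples, each on an array of its own, in 8 groups of 3 biological replicates lettered A to C. Whether a sample came from a single mouse is not given in the sources used here. BALB/c mice were irradiated or sham-treated and their glands collected 2, 4 or 8 weeks later, while SPRET/EiJ mice were irradiated or sham-treated and examined at 4 weeks only. All mice were 8 to 9 weeks old at exposure, and LDIR was a single whole-body dose of 10 cGy of X-rays. BALB/c is a common inbred mouse. SPRET/EiJ was derived from Mus spretus, a separate mouse species, and was measured here with probes designed on the reference mouse genome (mm9). No cell type was separated from the gland before RNA was extracted, so fewer cells of a type and less RNA per cell cannot be told apart.

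Skeletal muscle is not part of the mammary gland, but mouse mammary glands lie under the skin next to muscles of the chest and body wall. A muscle fibre contracts when myosin of the thick filament pulls on actin of the thin filament. Calcium released inside the fibre binds troponin C, which moves the other troponins and frees actin for myosin, and a calcium pump then returns the calcium to its store. Fast-twitch fibres, which make up most of mouse limb and body wall muscle, use their own isoforms of most of these proteins, and slow-twitch fibres and heart use others.

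Of the 13 probes, 2 each belonged to Tnnt3, Myl1 and Pvalb, and the remaining 7 genes had 1 probe. Where a gene had 2 probes, the brighter of them stands for the gene. The probes of Acta1, Ckm and Atp2a1 and both probes of Tnnt3 are printed because those genes carry most of the comparisons below and because the Tnnt3 pair is the only pair that shares sequence. Each is 60 bases long and is open in at least 1 reading frame throughout. Capitals mark the 27 bases that both Tnnt3 probes hold.
Acta1, probe at chr8:126416197-126416256 (mm9, minus strand): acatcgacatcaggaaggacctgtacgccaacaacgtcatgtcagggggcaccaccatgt
Ckm, probe across an intron at chr7:20002222-20004829 (mm9, plus strand): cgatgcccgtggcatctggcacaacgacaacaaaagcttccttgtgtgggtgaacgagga
Atp2a1, probe at chr7:133591703-133591762 (mm9, minus strand): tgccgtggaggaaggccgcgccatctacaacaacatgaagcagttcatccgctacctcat
Tnnt3, brighter probe at chr7:149698467-149698526 (mm9, plus strand): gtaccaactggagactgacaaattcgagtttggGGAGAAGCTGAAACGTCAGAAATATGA
Tnnt3, other probe across an intron at chr7:149698500-149700262 (mm9, plus strand): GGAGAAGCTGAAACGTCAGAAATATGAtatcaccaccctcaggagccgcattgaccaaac

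The 2 probes of a gene followed each other over the 24 arrays, with a Pearson r of their levels of 0.956 for Tnnt3, 0.975 for Myl1 and 0.956 for Pvalb, given as a description.

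The 250 bases before the start of the genes were examined because the members rose and fell together, and RefSeq windows (GRCm38.p6) were at hand for 8 of the 10 genes. Tnnt3 and Tnni2 were not matched. In the sequences of Acta1, Myh4 and Ckm, capitals mark CAGCTG, an E-box of the kind that myogenic factors such as MyoD bind, and the CArG box, the site of serum response factor. These 3 are shown because Acta1 and Myh4 held both motifs and Ckm held the E-box at the far end of its window.
Acta1, chr8:123894776-123895025 (GRCm38.p6, minus strand): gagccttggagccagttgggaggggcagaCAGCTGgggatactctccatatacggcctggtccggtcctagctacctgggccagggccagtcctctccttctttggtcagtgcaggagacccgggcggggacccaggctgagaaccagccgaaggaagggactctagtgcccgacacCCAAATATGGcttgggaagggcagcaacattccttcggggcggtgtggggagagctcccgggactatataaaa
Myh4, chr11:67237562-67237811 (GRCm38.p6, plus strand): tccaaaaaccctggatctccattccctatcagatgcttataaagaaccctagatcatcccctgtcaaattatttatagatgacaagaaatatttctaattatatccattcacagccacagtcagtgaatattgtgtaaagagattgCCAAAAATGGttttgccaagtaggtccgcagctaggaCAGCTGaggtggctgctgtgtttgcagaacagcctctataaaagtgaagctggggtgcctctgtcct
Ckm, chr7:19410844-19411093 (GRCm38.p6, plus strand): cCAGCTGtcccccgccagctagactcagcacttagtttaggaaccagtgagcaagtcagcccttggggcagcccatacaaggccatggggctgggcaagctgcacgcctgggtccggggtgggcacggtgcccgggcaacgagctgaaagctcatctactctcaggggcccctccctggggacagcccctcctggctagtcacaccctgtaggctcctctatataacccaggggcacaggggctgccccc

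CAGCTG was found on either strand in 6 of the 8 genes (Acta1, Atp2a1, Ckm, Myh4, Myl1 and Mylpf), and in 14.7% of the 27025 genes with such a window. The looser CANNTG, which every CAGCTG also matches, was in 8 of 8 genes and in 69.3% of all genes. The CArG box was in Acta1 and Myh4 and in 1.62% of all genes. The MEF2 site was in Myh4 and Pvalb and in 3.42% of all genes. TATAAA was in Acta1, Myh4 and Myl1 and in 14.3% of all genes, and CATTCC, the core that TEAD factors bind, was in the same 3 genes and in 14.4%. These are matches of letters in a window and not measured binding.

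Levels are log2 intensities relative to the 75th percentile of the same array, so that 0 is that percentile and a difference of 1 is a 2-fold difference within a probe. The share of probes well above background was 57.2% to 72.7% per array, and 0 spots were saturated. The arrays lay on 3 slides. Slide 1 held the 2-week BALB/c arrays with sham samples A and B of 4 weeks. Slide 2 held sham sample C and the LDIR samples of 4 weeks, the sham samples of 8 weeks and LDIR sample A of 8 weeks, and slide 3 held the rest. Markers of the tissue were present: 8 of 8 white adipocyte genes and 8 of 10 mammary epithelial genes were well above background on all 24 arrays. On 3 arrays the summed level of 7 lymphocyte genes was high, at 6.75 (LDIR sample B, 8 weeks), 6.50 (sham sample A, 8 weeks) and 6.14 (SPRET/EiJ LDIR sample A), against 3.66 to 4.76 on all others. The same 3 arrays had the lowest white adipocyte sums, 10.09, 10.29 and 10.30, against 10.66 to 11.80.

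The 10 muscle genes differed far more between samples of the same group than most genes did. Summed over the 10 genes, the level ran from 2.76 in LDIR sample B of 8 weeks to 10.27 in LDIR sample C of the same group, which is a 182-fold range over the series and within a single group. In BALB/c at 2 weeks the sum was 3.57, 4.37 and 9.73 in sham samples A, B and C, and 8.73, 5.59 and 4.34 in LDIR samples A, B and C. Sample C alone stood high among the sham samples, sample A among the irradiated ones, and the groups overlapped. At 4 weeks the sum was 5.82, 3.49 and 3.49 in the sham samples and 3.33, 4.08 and 3.92 in the irradiated samples. At 8 weeks it was 7.66, 6.11 and 7.89 in the sham samples and 8.07, 2.76 and 10.27 in the irradiated samples, so that 5 of these 6 arrays lay above every 4-week array. All 6 SPRET/EiJ arrays were low, at 4.12, 4.84 and 3.96 in sham samples and 2.80, 4.31 and 4.36 in irradiated samples. The level of Myl1 stayed at 1.31 or above on every array, the low ones included. The sum is of linear levels, so on the low arrays Myl1 makes up much of it and weighs on their order. By the mean log2 level of the 10 genes, SPRET/EiJ sham sample A was lowest, at -2.59, and 8-week LDIR sample B was at -2.52.

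**Figure D1:**
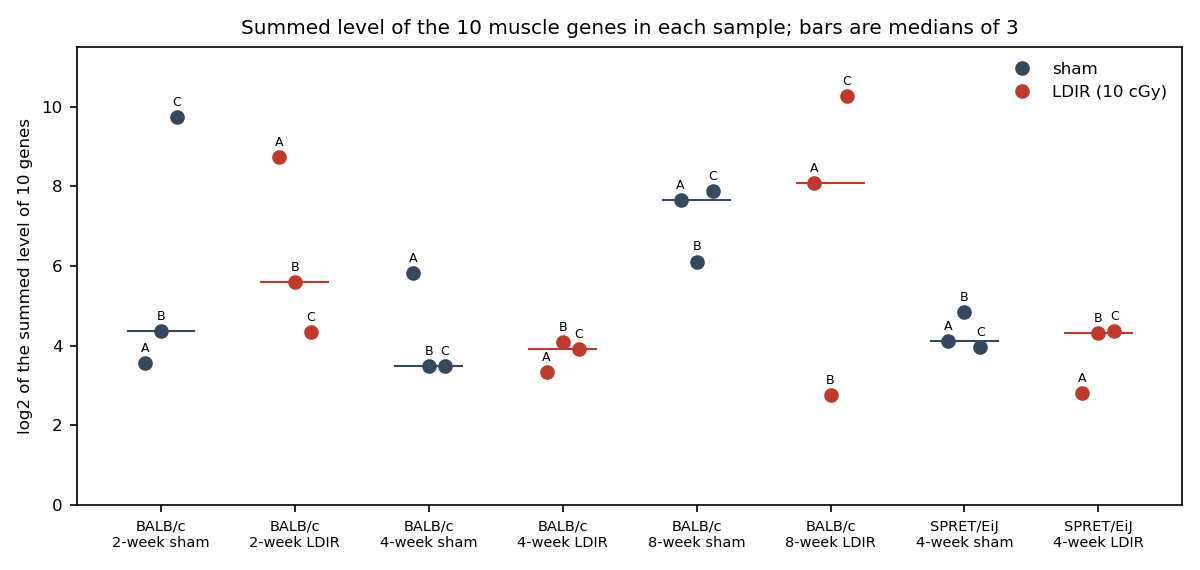
Summed level of the 10 muscle genes (log2 of the sum of linear levels, vertical axis) in each of the 24 samples, by group on the horizontal axis, with replicate letters above the points and bars at group medians. The 3 sham samples of 8 weeks sit between 6.11 and 7.89, the 8-week LDIR samples span 2.76 to 10.27, and no SPRET/EiJ sample is above 4.84.

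Among the filament proteins, Acta1, the actin of skeletal muscle thin filaments, was well above background on all 24 arrays. Its level in BALB/c at 2 weeks was 0.12, 0.76 and 6.08 in sham samples A, B and C and 5.65, 2.08 and 0.49 in LDIR samples A, B and C. At 4 weeks it was 2.25, -0.47 and 0.26 in sham samples and -0.04, 0.80 and 0.12 in LDIR samples. At 8 weeks it was 5.04, 3.83 and 4.90 in sham samples and 5.21, 1.02 and 7.45 in LDIR samples. The sham groups of 4 and 8 weeks did not overlap, and the LDIR group of 8 weeks held both the highest Acta1 level of the series and a level no higher than some at 4 weeks. In SPRET/EiJ it was 0.47, 2.21 and -0.30 in sham samples and -2.32, -0.82 and 0.12 in LDIR samples.

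Myh4, the myosin heavy chain of the fastest fibres (type IIb), had the widest range of the 10, from -7.43 to 8.19, and was well above background on 21 arrays. At 2 weeks it was -2.73, -0.80 and 8.00 in sham samples A, B and C and 7.004, 2.90 and -2.18 in LDIR samples A, B and C. At 4 weeks it was 3.83, -2.27 and -3.28 in sham samples and -1.31, -7.26 and -3.37 in LDIR samples, of which -7.26 was not well above background. At 8 weeks it was 5.64, 3.70 and 6.36 in sham samples and 6.25, -7.43 and 8.19 in LDIR samples, of which -7.43 was not well above background. In BALB/c the samples high for Acta1 were high for Myh4 too. For Myh4, 8-week LDIR sample B was without a signal well above background beside the highest level of the series in the same group. In SPRET/EiJ Myh4 lay between -5.08 and -2.20, sham sample B with its Acta1 level of 2.21 included. The myosin light chains Mylpf and Myl1 behaved differently from it at the low end. Mylpf, the regulatory light chain of fast myosin, was well above background on only 8 arrays, with levels from -7.93 to -0.88. Myl1, the essential light chain, was above background on all 24 and ranged from 1.31 to 6.64, the smallest range of the 10 genes.

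The 3 troponin subunits of fast fibres followed the same samples. Tnnt3 (troponin T, which ties the complex to tropomyosin) ranged from -6.01 to 6.22 and was above background on 22 arrays. Tnnc2 (troponin C, the calcium sensor) ranged from -1.46 to 8.11, and Tnni2 (troponin I, the inhibitory subunit) from -1.89 to 7.27, both above background on all 24. Tnnc2 at 8 weeks was 5.43, 3.75 and 5.34 in sham samples and 5.80, -1.43 and 8.11 in LDIR samples, and at 4 weeks 3.15, -0.64 and -0.94 in sham samples and -1.30, -0.35 and -0.62 in LDIR samples. The 8-week sham samples were all above the 4-week sham samples.

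Atp2a1, the calcium pump of fast fibres (SERCA1), ranged from -3.75 to 4.00, and Pvalb, the calcium buffer parvalbumin, from -1.29 to 6.63. Both were above background on all 24 arrays by their brighter probes. The dimmer Pvalb probe was above background on 9 arrays and reached 4.59 in 8-week LDIR sample C. Ckm, the creatine kinase that regenerates ATP during contraction, was above background on 16 arrays. At 2 weeks Ckm was -5.96, -6.72 and 4.00 in sham samples and 3.06, -1.38 and -6.34 in LDIR samples, of which -5.96, -6.72 and -6.34 were not well above background. At 4 weeks it was -0.40, -5.17 and -4.14 in sham samples and -5.13, -5.49 and -5.47 in LDIR samples, of which -5.49 was not well above background. At 8 weeks it was 2.45, 0.66 and 2.68 in sham samples and 2.89, -5.26 and 5.55 in LDIR samples. Sham sample C of 2 weeks, LDIR sample A of 2 weeks and LDIR sample C of 8 weeks were the 3 highest for Ckm as for the sum.

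**Figure D2:**
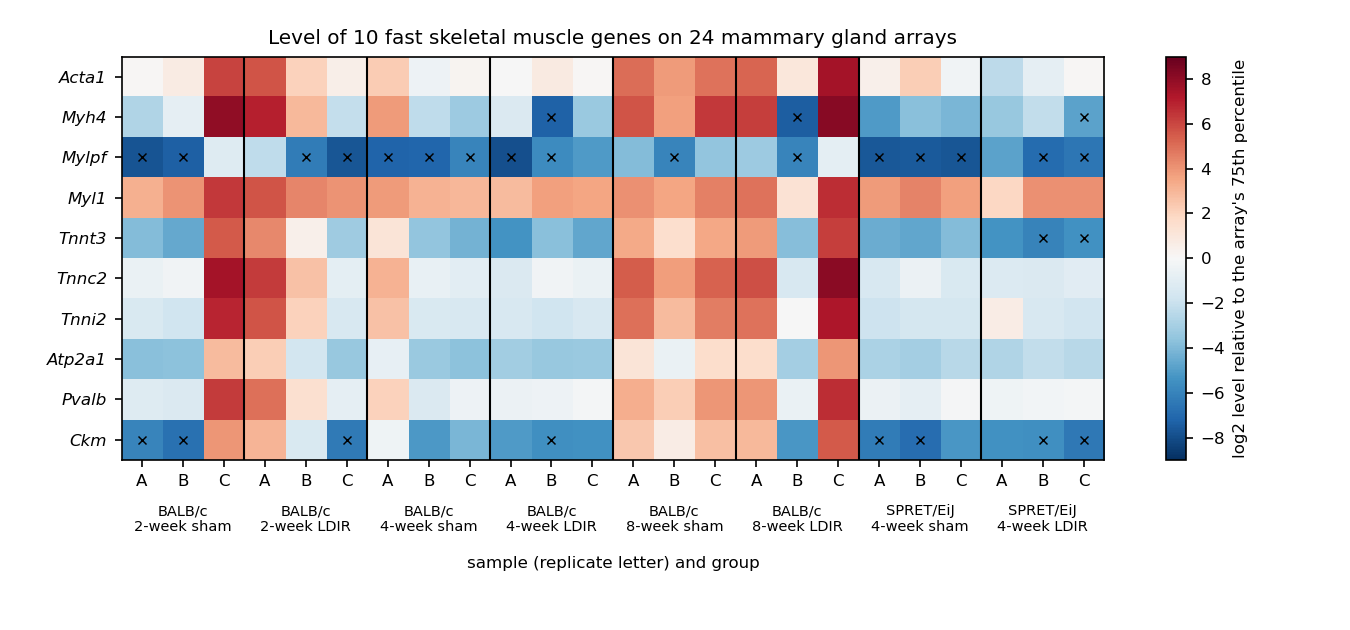
Level of each of the 10 genes (rows, brightest probe) on each of the 24 arrays (columns, by group and replicate letter), coloured by log2 level relative to the array's 75th percentile. A cross marks a probe not well above background, as for Myh4 in 8-week LDIR sample B at -7.43.

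The 10 genes moved by like amounts where they were high. Relative to 8-week LDIR sample C, the array with the highest mean, the median difference of the 10 genes was -0.51 in 2-week sham sample C, with an SD over genes of 0.50. It was -1.71 (SD 0.42) in 2-week LDIR sample A, -2.36 (SD 0.29) in 8-week LDIR sample A, -2.64 (SD 0.32) in 8-week sham sample C and -2.73 (SD 0.33) in 8-week sham sample A. In 8-week sham sample B it was -4.47 (SD 0.58), in 4-week sham sample A -4.86 (SD 0.96) and in 2-week LDIR sample B -5.40 (SD 1.18). On the remaining arrays it was between -8.51 and -7.25, with an SD over genes between 2.13 and 3.47. The number of the 10 genes well above background was 6 to 10 on every array, so the signal of some members persisted on the lowest arrays.

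**Figure D3:**
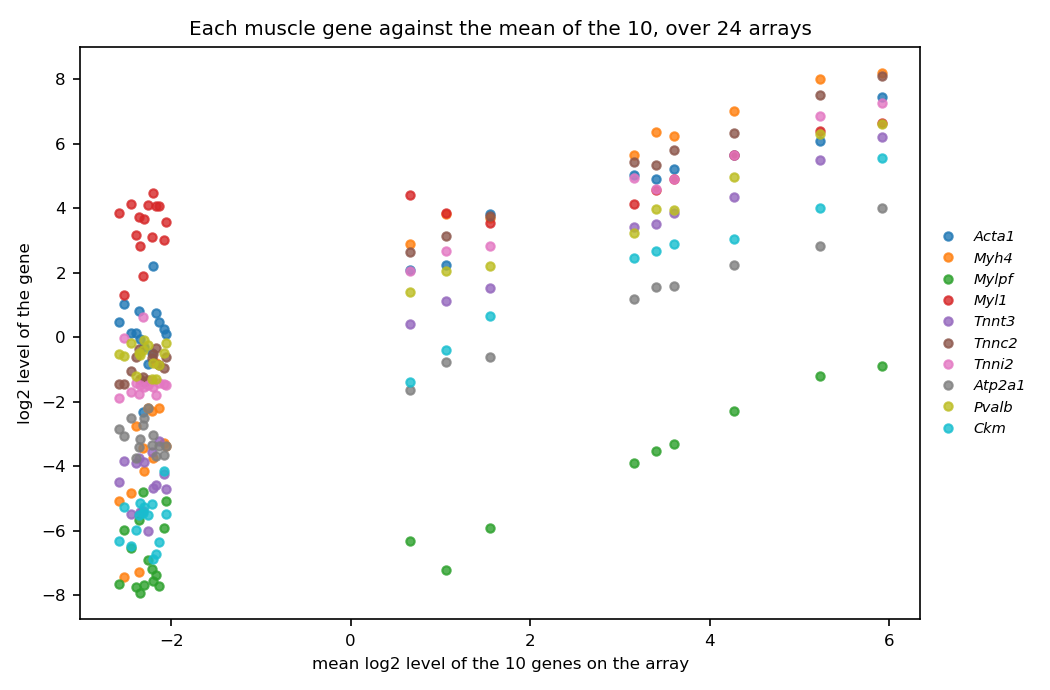
Log2 level of each gene (vertical axis, 1 colour per gene) against the mean log2 level of the 10 genes on the same array (horizontal axis), for 24 arrays. From a mean of 3.16 upward the genes run in parallel, while at means below -2 they scatter around a level of their own, for Myl1 between 1.31 and 4.47.

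The deviation of each array from its group mean gives the spread without the group differences. Pooled over the 8 groups, the within-group SD of Myh4 was 4.39 (log2), and 0 of the probes that were well above background on at least 12 arrays had a larger one. It was 3.50 for Ckm, 3.25 for Tnnt3, 2.86 for Tnnc2, 2.71 for Tnni2, 2.37 for Pvalb, 2.22 for Atp2a1, 2.07 for Acta1 and 2.05 for Mylpf, and 99.7% or more of these probes varied less. Myl1, at 1.29, varied less than the other members, and 98.6% of the probes varied less than it did. Over the 45 pairs of members, the Pearson r of the deviations ran from 0.70 (Myh4 and Mylpf) to 0.99 (Atp2a1 and Pvalb), with a median of 0.91. These r values describe 24 arrays of which a few are far above the rest, and they are given without a test.

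The first question of the design is whether LDIR changed these genes, and in BALB/c the test called 0 of 10 members at each time. At 2 weeks the fitted differences (LDIR minus sham) ran from 0.00 to 1.51 with standard errors between 0.86 and 3.50. The smallest p was that of Tnnt3, 1.51 ± 3.12 (SE, 3 samples against 3), with a Benjamini-Hochberg adjusted p = 0.922 by limma. Across all probes 3.13% were called at the study's thresholds, an unadjusted p under 0.05 and more than a 1.5-fold change. The median difference of the 10 genes was 0.59, beside 0.00 over all probes, and it was 3.13 without sham sample C and -0.98 without LDIR sample A. It was also negative without sham sample A (-0.58) and without sham sample B (-0.53), and positive without LDIR sample B or C.

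At 4 weeks 0 of 10 members were called, with 4.78% of all probes called. The smallest p was that of Ckm, -2.13 ± 1.16 (SE), adjusted p = 0.783 by limma. The median difference was -0.999, and 8 of 10 members were lower after LDIR. Only Tnni2 did not overlap between these groups, where 12.2% of all probes did not, with 2.66, -1.36 and -1.45 in sham samples and -1.47, -1.76 and -1.47 in LDIR samples. Without sham sample A the median was 0.11, and with slide as a block it was -0.04. Only sham sample C lay on the slide of the LDIR samples, so -0.04 rests on it alone for the sham group.

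At 8 weeks 0 of 10 were called, with 1.8% of all probes called, and differences ran from -2.89 to 1.06. The smallest p was that of Mylpf, 1.06 ± 1.37 (SE), adjusted p = 0.99996 by limma. The median difference was -0.05. Leaving out LDIR sample B, which had high lymphocyte markers and the lowest muscle sum, brought it to 2.10, and leaving out LDIR sample C, the highest, brought it to -1.57. With slide as a block it was 0.92, with 10 of 10 members positive in place of 4. LDIR samples B and C shared no slide with a sham sample, so 0.92 sets LDIR sample A alone against the 3 sham samples. In none of the 3 BALB/c comparisons did a member pass an unadjusted p under 0.05, and the methods' t-test also called 0. The 95% intervals were wide: at 8 weeks that of Myh4 reached from -12.92 to 7.13.

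In SPRET/EiJ 2 of 10 members were called, beside 2.2% of all probes. The mean level of the 10 genes spread little there, with an SD of 0.20 in sham and 0.10 in LDIR samples. Some single genes spread more, such as Acta1, with an SD of 1.29 in sham and 1.23 in LDIR samples. Tnnt3 fell by 1.29 ± 0.32 (SE, log2) after LDIR, with an adjusted p = 0.972 by limma. Its brighter probe was at -4.47, -4.66 and -3.87 in sham samples and at -5.38, -6.01 and -5.47 in LDIR samples, and the latter 2 were not well above background. The groups did not overlap (5.85% of all probes), but the other Tnnt3 probe, which shares 27 bases with it, gave -0.23 ± 0.28 and was not called. Mylpf passed in the other direction, 1.54 ± 0.54, adjusted p = 0.972 by limma. It was well above background only in LDIR sample A, at -4.81. With each sham reading raised to at least the lowest level well above background on its array, the fold was 2.67. The LDIR mean in it includes readings not well above background, so 2.67 is no firm bound. Acta1, at -1.80 ± 0.81, did not pass. LDIR sample A also carried the high lymphocyte markers given above. Without it both were still called, Tnnt3 at -1.41 and Mylpf at 0.90, but no Mylpf reading that was left was well above background in either group. Called members went from 2 to 0 when all 24 arrays were fitted together, and to 4 without LDIR sample C.

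**Figure D4:**
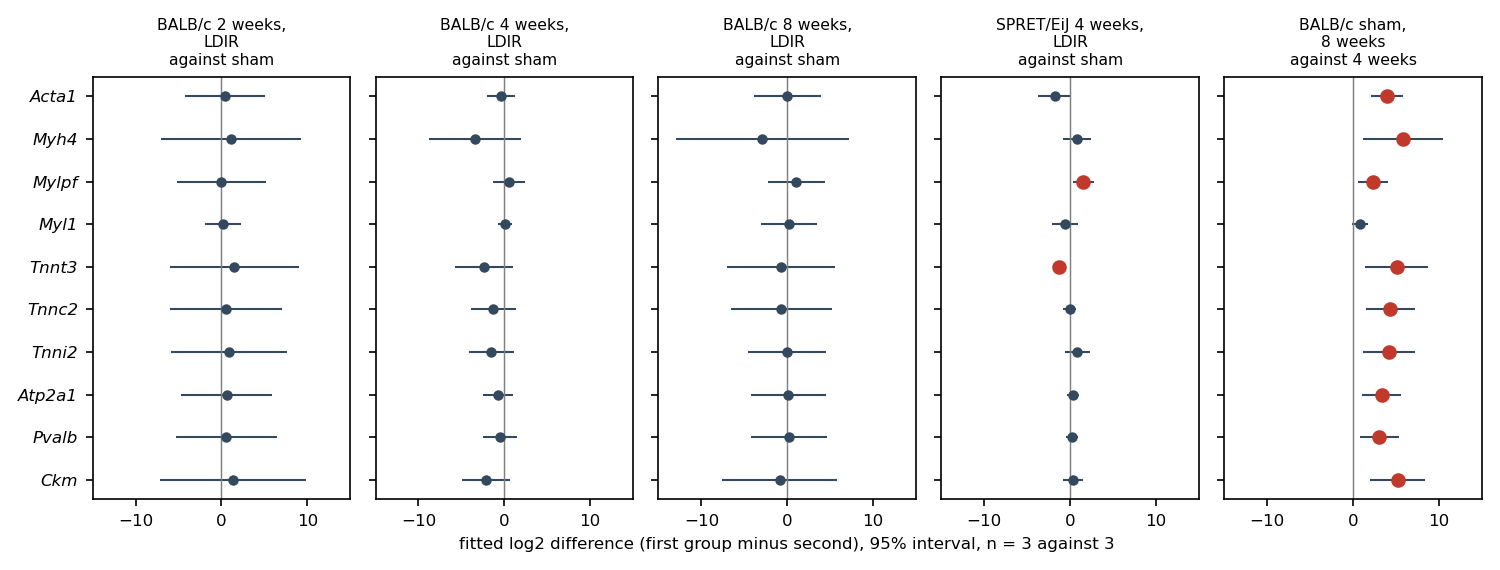
Fitted log2 difference of each gene (brightest probe) in 5 comparisons, as points with 95% intervals from limma, 3 samples against 3. Red points passed an unadjusted p under 0.05 and a 1.5-fold change, which held for 0 genes in each BALB/c LDIR comparison, 2 in SPRET/EiJ and 9 between the sham samples of 8 and 4 weeks.

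Time was compared in the BALB/c sham samples, in all 3 pairs of groups, after the levels had been seen. Between 8 and 4 weeks 9 of 10 members were called, all higher at 8 weeks, where 5.33% of all probes were called higher and 13.8% in either direction. Acta1 was higher by 3.91 ± 0.76 (SE), with an adjusted p = 0.135 by limma. Ckm was higher by 5.17 ± 1.30 (adjusted p = 0.186), Tnnt3 by 5.05 ± 1.49 (adjusted p = 0.228), Tnnc2 by 4.32 ± 1.17 and Tnni2 by 4.17 ± 1.24. Myh4 was higher by 5.81 ± 1.93, Atp2a1 by 3.30 ± 0.94, Pvalb by 3.05 ± 0.94 and Mylpf by 2.32 ± 0.73. Mylpf was above background on 2 of 3 arrays at 8 weeks and on 0 of 3 at 4 weeks. With its 4-week readings raised as for SPRET/EiJ, its fold was 5.01, and its 8-week mean includes a reading not well above background. Myl1, at 0.74 ± 0.38 (adjusted p = 0.461 by limma), was not called by its brighter probe. Adjusted over all probes 0 of 10 passed, as did 0 of all 55681.

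Of the 10 members, 7 did not overlap between these sham groups, all of them higher at 8 weeks, beside 9.65% of all probes higher there and 23.4% in either direction. The median difference was 4.04, beside 0.05 over all probes. In the same comparison white adipocyte markers were called lower for 6 of 8 and brown adipocyte markers for 5 of 8, mammary epithelial markers higher for 0 of 10 and lower for 1, and macrophage markers higher for 2 of 5 (Cd68 by 0.87 and Csf1r by 0.96). Their part in the result was not tested. The count fell to 1 (Acta1) when all 24 arrays shared a spread and to 4 without 4-week sham sample B. It was 6 without 4-week sham sample C and 6 without 8-week sham sample C. With slide as a block, on the 6 arrays compared or on all 24, the median difference was 4.97. Only sham sample C of 4 weeks lay on the slide of the 8-week sham samples, so 4.97 rests on it alone for 4 weeks. Without 8-week sham sample A, which had high lymphocyte markers, 8 were called.

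Between 4 and 2 weeks 0 of 10 members were called (3.04% of all probes), and between 8 and 2 weeks also 0 (16% of all probes), where Ckm came closest, at 4.82 ± 2.92 (SE). Without 2-week sham sample C, the sample with the second highest muscle sum, 9 of 10 were called between 8 and 2 weeks. These 3 comparisons share their sham samples with each other and with the LDIR comparisons.

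The strains were compared at 4 weeks at the study's stricter threshold, an unadjusted p under 0.001. In sham samples 0 of 10 members were called, beside 8.85% of all probes. Differences (BALB/c minus SPRET/EiJ) ran from -0.66 to 3.74 with a median of 1.23 (8 of 10 positive), and Ckm had the smallest p, 2.90 ± 1.23 (SE), adjusted p = 0.164 by limma. Of the 10 members, 4 did not overlap, all higher in BALB/c, beside 18.1% of all probes higher there and 36.8% in either direction. The sham samples of the strains shared no slide, and the median turned to -1.70, with 1 of 10 positive, once slide was added to the 24-array fit. In that fit only the 8-week LDIR samples join slides 2 and 3, and only the 4-week BALB/c sham samples join slides 1 and 2. The slide shift therefore also holds how far those few samples differed from each other. The median was 1.24 with slide as a random block and 0.29 without BALB/c sham sample A. In irradiated samples 0 of 10 were called, beside 5.67% of all probes. Atp2a1 had the smallest p, -0.84 ± 0.24 (SE), adjusted p = 0.0723 by limma, and 33.2% of all probes, like it, did not overlap between the strains. The 3 irradiated samples of each strain lay on a slide of their own there, so slide and strain cannot be told apart within these 6 arrays. In the fit of all 24 arrays, slide as a block moved the median from -0.07 to -1.80, again through the 8-week LDIR samples that join the slides. The interaction of strain with LDIR called 0 of 10 members, beside 3.53% of all probes, and Ckm came closest, at -2.46 ± 1.35 (SE), adjusted p = 0.957 by limma.

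Over all 8 groups limma's F test passed 0 of 10 members at an adjusted p under 0.05, beside 33.6% of all probes. At an unadjusted p under 0.05, 4 members passed (Acta1, Tnnt3, Ckm and Tnni2), beside 43.1% of all probes. Acta1 came closest, with an adjusted p = 0.0520 by limma. The adjusted count was 6 without 8-week LDIR sample B, 4 without 2-week sham sample C, and 2 each without 2-week LDIR sample C and without 2-week sham sample A. It was 1 each without 2-week LDIR sample A, 2-week sham sample B and 4-week sham sample A.

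Which other genes followed the members was described by the Pearson r between a probe's deviations from its group means and the mean deviation of the 10 genes, over 24 arrays and 38301 probes well above background on at least 12 arrays. The gene most alike was Myoz1 (r = 0.995), a protein of the Z disc, followed by Actn3 (0.991), the alpha-actinin of fast fibres, and Tcap (0.988), which anchors titin. Then came Mybpc2 (0.984), the myosin-binding protein C of fast fibres, and Trdn (0.983), a partner of the calcium release channel. Pgam2 (0.982), the muscle form of a glycolytic enzyme, and Tpm1 (0.978), a tropomyosin, came after them. Myh8 (0.973), the perinatal myosin heavy chain, Txlnb (0.971) and an unnamed transcript on chromosome 17 (0.966) completed the 10. Myh8 and Myh4 are close relatives in 1 gene cluster on chromosome 11, and how far their probes hybridise to each other's RNA was not tested. The probe of Myoz1 ranged from -5.45 to 3.66 over the arrays.

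In all, 65 probes had an r of at least 0.9, of which 9 were member probes and the others stood for 45 names. Of these names, 17 were in the lists described next. The brightest probes of the members are part of the mean they are compared with, which raises their own r. Between the sham samples of 8 and 4 weeks 55 of the 65 were called higher, 84.6% of them, but they were chosen for following the members, so this is no separate result. In the LDIR comparisons of BALB/c at 2, 4 and 8 weeks 0, 2 and 0 of them were called, beside 3.13%, 4.78% and 1.8% of all probes. In SPRET/EiJ 5 of the 65 were called after LDIR, all lower, 7.69% of them beside 2.2% of all probes. The brighter Tnnt3 probe, given above, is among these 5, and some genes hold more than 1 of the 65 probes.

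Lists of other muscle genes showed which parts of a fibre moved with the members. Of 19 genes of sarcomere structure, 11 had an r of at least 0.9 and the median r was 0.91. The highest mean levels among them were those of Ldb3 (-0.46, a Z disc protein) and Tmod4 (-0.65, which caps the thin filament), and the lowest those of Lmod2 (-7.61) and Xirp2 (-5.81). Myh2 and Myh1, the heavy chains of type IIa and IIx fibres, had r values of 0.18 and 0.23, and Myh1 was well above background on 10 arrays. Of 15 genes of excitation and calcium release, 7 had an r of at least 0.9 (median 0.86), among them Ryr1, the calcium release channel, at 0.942 and Cacna1s, its voltage sensor, at 0.938. By mean level Jsrp1 (1.09) and Cacna1s (-0.97) were highest and Sln (-7.13) and Clcn1 (-6.77) lowest, and Sln, a peptide inhibitor of the calcium pump, had an r of 0.17. Of 14 genes of muscle energy metabolism, 3 did (median 0.78), while Slc2a4, the glucose transporter that fat cells share, was at 0.242. In this list Slc2a4 (5.70) and Cox8b (3.71) had the highest mean levels and Ckmt2 (-5.47) and Mb (-3.15), myoglobin, the lowest.

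Slow fibre isoforms had low r values. The median r of 10 such genes was -0.04, with a range from -0.41 to 0.44 and 0 at 0.9 or above. Tpm3 (5.85) and Mybpc1 (-1.28) had the highest mean levels of the list, and Myoz2 (-7.16) and Tnni1 (-5.16), the slow troponin I, the lowest. Of 11 genes of developing or regenerating muscle, 2 reached 0.9, Myh8 and Myf6 (0.94), a myogenic transcription factor that mature fibres keep. The highest levels there were those of Myl4 (1.499) and Myh8 (0.61) and the lowest those of Myf5 (-7.73) and Myh3 (-6.20). Of 6 cardiac genes 0 reached 0.9 (median -0.12). Nppa (-1.78) and Myh6 (-4.23) were the highest and Myl7 (-7.37) and Myh7b (-4.80) the lowest.

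**Figure D5:**
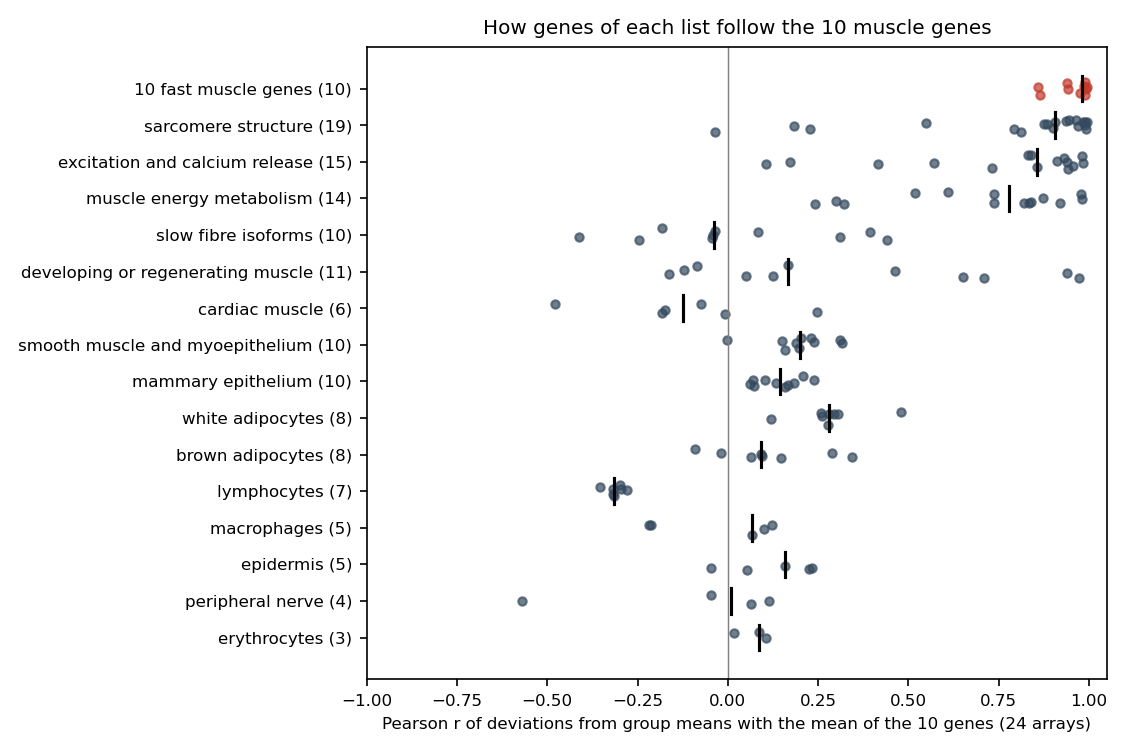
Pearson r of each gene's deviations from its group means with the mean of the 10 muscle genes over 24 arrays (horizontal axis), by list (rows, number of genes in brackets), with a bar at each median. Sarcomere genes have a median of 0.91 and slow fibre isoforms a median of -0.04. The 10 genes are themselves part of the mean, which raises their own r.

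Genes of other cell types had low r values as well. The median r was 0.20 for 10 genes of smooth muscle and myoepithelium, 0.15 for mammary epithelium, 0.28 for white adipocytes, 0.09 for brown adipocytes and 0.07 for macrophages. The 7 lymphocyte genes had r values from -0.36 to -0.28. The median was 0.16 for 5 epidermal genes, 0.01 for 4 genes of peripheral nerve and 0.09 for 3 erythrocyte genes.

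Between the sham samples of 8 and 4 weeks 5.33% of all probes were called higher, and 9 of 10 members, with a median of 4.04. The sarcomere, excitation and energy lists gave smaller shares and smaller medians. Members and lists were chosen with earlier results known, so this order is a description only. Of the sarcomere genes 9 of 19 were called higher and 0 lower, with a median difference of 3.16. Of the excitation and calcium release genes 7 of 15 were called higher and 0 lower (median 1.07). Of the energy metabolism genes 7 of 14 were called higher and 2 lower. The lower ones were Cox8b (-2.60), a cytochrome oxidase subunit also abundant in brown fat, and Gys1 (-1.31), glycogen synthase. Slow fibre isoforms gave 2 higher of 10, developing muscle 2 of 11 and cardiac genes 0 of 6. After LDIR in BALB/c the sarcomere, excitation and energy lists gave 0 calls at 2 weeks and 0 at 8 weeks. At 4 weeks, where 4.78% of all probes were called, 4 of their genes were: Myh2 higher (0.91), and Stac3 (-1.18), Eno3 (-0.66) and Gys1 (-0.59) lower.

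Among the probes with an r of at least 0.9 were 9 for long intergenic non-coding RNAs, which the array names by position, in 5 regions. They are named here because of their r, after their values were seen. On chromosome 3, chr3:137736327-137752677 (mm9, forward strand) had an r of 0.961 and levels from -7.85 to -0.07, and the region within it at chr3:137742666-137744470 (forward strand) had 0.941. On chromosome 10, 4 probes fell in chr10:69669025-69686275 (forward strand), with r values from 0.903 to 0.937, and 2 in chr10:69679644-69682458, which lies inside it. The last, chr3:148884650-148888709 (reverse strand), had an r of 0.927. The overlapping regions may report the same transcript, which was not tested.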

How the data were processed

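Total RNA of 24 mammary gland samples was hybridised to 1-colour Agilent mouse 8x60K arrays with lincRNA content. The authors deposited Feature Extraction scanner files, whose processed signal is an intensity after background subtraction, and a table of log2 values scaled to the 75th percentile and centred per probe, which served as an alternative (99.98% of its values were within 0.1 of those computed here, once both were centred, over probes above background on all arrays). Here log2 of the processed signal minus the array's 75th percentile was used, control and outlier spots were left out, and spots of a probe were averaged. The test was limma's (version 3.58.1, run under R 4.3.3), fitted to the 3 against 3 arrays of each comparison, with Benjamini-Hochberg adjustment over all probes. Calls used the study's thresholds: an unadjusted p under 0.05 (0.001 between strains) and more than 1.5-fold. The interaction used the 4 groups of 4 weeks and the F test all 24 arrays. Figures were drawn with matplotlib 3.10.9 in Python 3.11.15. The fits were tested on simulated data.

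The members and lists were chosen with earlier results of these data known. Fitted differences are printed for members called and otherwise for the member with the smallest p; of other muscle lists the 2 genes of highest and the 2 of lowest mean level are named, and the 10 genes most like the members. Names beyond that rule were chosen after their values were seen. Replicate letters were checked as pairs: same-lettered samples at 2 weeks deviated together (correlations of 0.166, 0.481 and 0.171), which rests on these values alone, and in no other comparison did all 3 letters exceed 0.1. Results were recomputed with quantile normalization, with normexp (offset 50) as the background correction, on the authors' log2 table, with probes above background on at least 12 arrays, 1 fit of all arrays, slide or replicate blocks, the methods' t-test, and without each sample in turn. The number of arrays limits the precision, and p-values measure the spread between these samples.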

Additional observations from a re-analysis of the deposited data

How the results depend on the processing

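With 3 samples a group, single samples decided many values. Without each sample in turn, the called members ran from 0 to 1 at 4 weeks after LDIR (1 without sham sample B, Ckm, and 1 without LDIR sample A, Mylpf), from 0 to 1 at 8 weeks (Myl1 without LDIR sample B), from 1 to 4 in SPRET/EiJ, from 4 to 10 between sham samples of 8 and 4 weeks, from 0 to 9 between 8 and 2 weeks, from 0 to 1 between 4 and 2 weeks (1 without 2-week sham sample A), from 0 to 2 for the interaction (2 without BALB/c sham sample C), and from 0 to 6 for the F test. In SPRET/EiJ the 2 called members became 1 with normexp, with quantile normalization and by the methods' t-test. They became 0 in the fit of all 24 arrays with or without slide. Among probes above background on at least 3 of the 6 arrays compared, 1 was called, and Mylpf was left out by that filter and not tested. Between 8 and 4 weeks the 9 became 5 by the methods' t-test and 1 in the fit of all 24 arrays. With slide added, that comparison rests on sham sample C alone for 4 weeks. Between 4 and 2 weeks 1 member (Myl1) was called with normexp. The F test passed 1 member with normexp, 2 with quantile normalization and 2 among probes above background on 12 arrays. Without each sample in turn, the difference of Tnnt3 at 2 weeks ran from -0.40 (without LDIR sample A) to 4.76 (without sham sample C), and was -0.28 without sham sample B, and that of Mylpf at 8 weeks from -0.19 (without LDIR sample C) to 2.35 (without LDIR sample B). Ckm between sham strains turned to -0.75 with slide in the fit of all arrays, where few samples join the slides. The cause of these changes was not tested. The replicate block, which pairs samples by letter, changed no count of called members: it was 0 in the BALB/c LDIR comparisons, 2 in SPRET/EiJ, 9 between sham samples of 8 and 4 weeks and 0 elsewhere. The values scored under the alternatives were counts of called members, with the range of the summed level beside them, and 172 were scored the same and 32 moved. A count was the same if it was equal, 0 against 0 included, or within 1.5 times. Such a score does not show that a difference held. Without each sample in turn, the median at 2 weeks after LDIR ran from -0.98 to 3.13 with 0 called in every fit. For the irradiated strain comparison a random slide block was not run, since each group lies on 1 slide. Probes near background limit Mylpf and Ckm most.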
